A study of Mus musculus with 9 samples.

Results

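The gene set described here holds 34 genes of motile cilia and of ciliated ependyma, chosen by symbol: axoneme, radial spoke, dynein and ciliary transport genes with the transcription factors that switch on ciliogenesis. A probe set was taken for a gene only where the platform annotation gives it that 1 symbol. This gave 48 of the 45101 probe sets on the array, from 33 of the 34 genes, while Lrriq1 has no such probe set here. The choroid plexus, the tissue in the brain ventricles that secretes cerebrospinal fluid, was collected by laser capture from fresh-frozen nervous system samples of C57BL males that were 78 weeks old and fed normal chow. There were 4 arrays of apoE-/- tissue, which lacks the lipid carrier apolipoprotein E, and 5 arrays of wild-type tissue, with 1 sample per array. Both groups share strain, sex, age and diet, and since no label ties a capture to an animal of its own, the p-values speak only for the variation among these samples, part of which may be technical.

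Motile cilia are built on an axoneme in which outer and inner dynein arms slide doublet microtubules against each other, radial spokes pass signals from a central pair of microtubules to the arms, and the nexin-dynein regulatory complex limits the sliding. The forkhead factor FOXJ1 and factors of the RFX family drive the genes of this machine, RFX proteins through a promoter element called the X-box. In the ventricles, ependymal cells beat tufts of such cilia, and choroid plexus epithelium also bears cilia and expresses many of the same genes, so their RNA in a capture can come from either cell type.

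Across the series, each array detected 44.0% to 49.1% of its probe sets as present, by a call that compares matched with mismatched probes. Apoe had a signal of 12.2 to 53.8 on the apoE-/- arrays, absent on all 4, and of 18252 to 23953.1 on the wild-type arrays, present on all 5. Of the markers of the labelled tissue, all 14 choroid plexus epithelium markers with a probe set were called present on all 9 arrays. Signals are the deposited linear intensities, which are scaled per array and do not compare 1 probe set with another. Differences are on the log2 scale after quantile normalization, apoE-/- minus wild-type, tested with limma over the 21478 probe sets that 4 or more of the 9 arrays detected.

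Most of the motile cilia genes were detected in every capture. Of the 33 genes with a probe set, 20 were called present on all 9 arrays by at least 1 probe set, 4 on 4 to 8 arrays, 4 on 1 to 3 arrays and 5 on none. The 5 never called present were Rfx2, a factor of the X-box family, Spag6 and Spag17, proteins of the central pair, Tekt2, a tektin filament of the doublet microtubules, and Ccdc40, a partner in the ruler that sets the spacing of axonemal structures. An absent call here does not show that the RNA was missing, since Ccdc39, the other ruler protein, was called present by 2 of its 3 probe sets on all 9 arrays and by its remaining probe set on none. Radial spoke head genes Rsph1, Rsph4a and Rsph9 were present throughout. Tmem212, a membrane protein known as a marker of ependymal cells in mouse brain, was called present on apoE-/- replicate 1 alone. Between 22 and 26 of the 33 genes were called present on the apoE-/- arrays, and between 23 and 25 on the wild-type arrays.

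**Figure D1:**
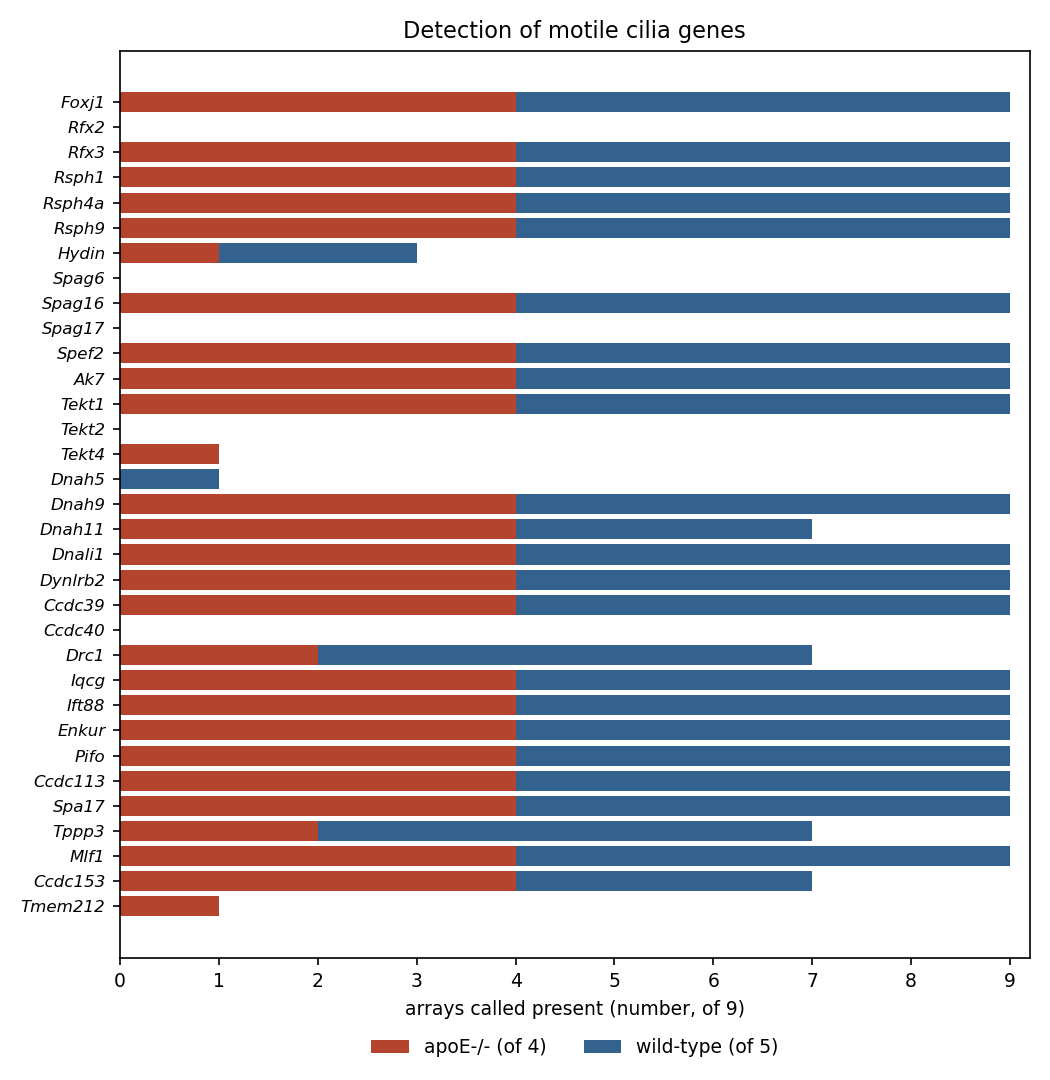
Number of arrays (horizontal axis, of 9) on which each of 33 motile cilia genes was called present by its most often detected probe set, with apoE-/- arrays in red and wild-type arrays in blue. The bars reach 9 for 20 genes, while Rfx2, Spag6, Spag17, Tekt2 and Ccdc40 have none.

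No gene of the set passed the test between genotypes. Of 29 tested probe sets, from 24 genes, 0 rose and 0 fell at an adjusted p under 0.05 (limma with Benjamini-Hochberg adjustment over every tested probe set). Over the whole array 2.59% of tested probe sets passed, 0.67% higher and 1.92% lower. At an unadjusted p under 0.05 stood 6 of the 29, beside 16.5% of all tested probe sets. Each gene was then read by its brightest tested probe set, by which 0.794% of all tested genes rose and 0.866% fell. By this reading 5 of 24 genes, or 20.8%, had an unadjusted p under 0.05, 4 of them higher and 1 lower, against 14.8% of all 11089 tested genes. Of the 24, 14 read higher and 10 lower, with a median log2 difference of 0.04, beside 0.02 over all tested genes. The 95% intervals bound the differences: for 22 of the 24 genes the interval lay within 2-fold in both directions, and for 19 within 1.5-fold. In tissue captures such as these, a change in the number of ciliated cells cannot be told apart from a change in RNA per cell.

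**Figure D2:**
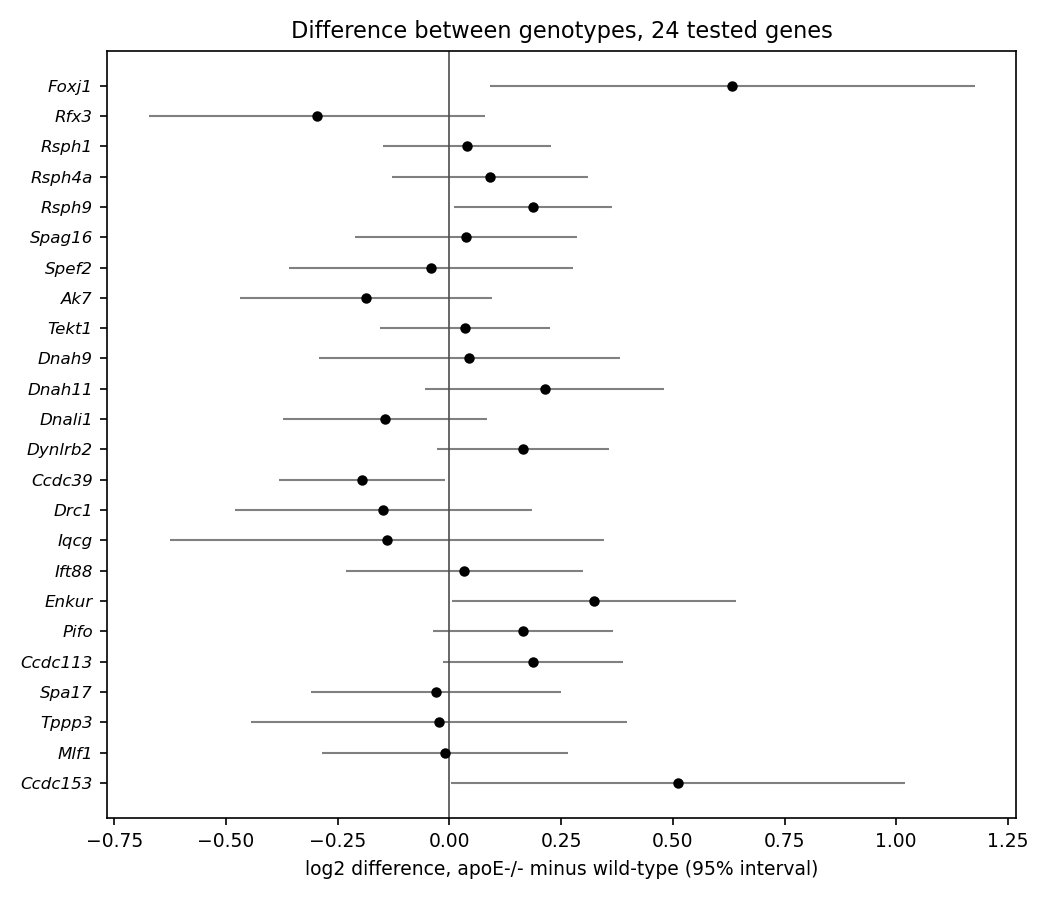
Log2 difference (horizontal axis, apoE-/- minus wild-type) of the 24 tested motile cilia genes, each by its brightest tested probe set, with 95% intervals from limma as bars. Foxj1 at 0.63 and Ccdc153 at 0.51 lie farthest to the right with the widest intervals, and Rfx3 at -0.30 lies farthest to the left.

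Among the regulators, Foxj1 read higher in apoE-/- without passing and had the largest pooled SD within genotypes of the 24 tested genes, 0.51. Foxj1 had a signal of 1763.4, 2166, 1092.8 and 1962.2 on apoE-/- replicates 1 to 4, against 1923.5, 1369.4, 802.2, 825.7 and 906.7 on wild-type replicates 1 to 5. Apart from replicate 3, the apoE-/- arrays were high, while the wild-type arrays split into a high replicate 1, an intermediate replicate 2 and 3 low arrays, so the groups overlapped. The log2 difference was 0.63 ± 0.25 (SE, limma adjusted p = 0.227), a 1.55-fold difference with a 95% interval of 1.06 to 2.26. With 1 array left out it ran from 0.51 (adjusted p = 0.475, without apoE-/- replicate 2) to 0.84 (adjusted p = 0.0568, without wild-type replicate 1).

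Rfx3, which activates ciliary genes through the X-box, read slightly lower. Its signal was 2185.6, 1444, 1439 and 2664.4 on apoE-/- replicates 1 to 4, against 2355.6, 2720.5, 1736, 2635.1 and 2245.4 on wild-type replicates 1 to 5. Here apoE-/- replicates 2 and 3 were the lowest of the 9 arrays, replicate 4 was among the highest, and the groups overlapped. The log2 difference was -0.30 ± 0.18 (SE, adjusted p = 0.433), and a dimmer probe set read -0.19. The Rfx3 difference was -0.18 without apoE-/- replicate 2 or without replicate 3, and -0.47 (adjusted p = 0.127) without replicate 4. Rfx2 was not called present by any of its 4 probe sets on any array.

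The promoters of the set, 250 bases before to 50 after a start (RefSeq, GRCm38.p6), were read for the X-box that RFX factors bind. Of the 34 genes 30 had such a window, 35 windows in all, and Foxj1, Rsph1, Rsph4a and Tppp3 had none in the table used. A gene was counted where any of its windows holds the motif on either strand. The palindromic form, GTNNCC and GGNNAC with NN between them, was in 5 of the 30 genes, or 16.7%. It was in 2.16% of the 27025 genes with a window and in 2.81% of the tested genes with one. Of 92 cilia genes outside the set, 14, or 15.2%, held it. Its single arm GTTGCC, which can lie inside that form, was in 19 of the 30, or 63.3%. The arm was in 14.1% of all genes, 15.5% of the 9019 tested genes with a window and 33.7% of the 92 other cilia genes. A forkhead motif, GTAAACA, was in 2 of the 30, or 6.67%, and in 4.05% of all genes. These shares describe letters in a window and not binding, and neither factor was measured on these promoters. Iqcg, Rfx3, Drc1, Spef2 and Mlf1 hold the arm, with log2 differences of -0.14, -0.30, -0.15, -0.04 and -0.01 by brightest probe set. Spag16, Tekt1 and Ift88 hold it too and read 0.04, 0.04 and 0.03. Ccdc39 and Dnah9, at -0.20 and 0.04, hold neither form. Whether the element goes with the direction of a difference was not tested. The 6 windows below, with X-box matches in capitals, are part of those with the element, all from genes that read higher in apoE-/-. They are those of Rsph9 (chr17:46144151-46144450, minus strand), Pifo (chr3:106001448-106001747, minus strand), Dynlrb2 (chr8:116504765-116505064, plus strand), Enkur (chr2:21205316-21205615, minus strand), Ccdc113 (chr8:95533850-95534149, plus strand) and Ccdc153 (chr9:44240427-44240726, plus strand), each written 5′ to 3′ on its gene's strand.
Rsph9: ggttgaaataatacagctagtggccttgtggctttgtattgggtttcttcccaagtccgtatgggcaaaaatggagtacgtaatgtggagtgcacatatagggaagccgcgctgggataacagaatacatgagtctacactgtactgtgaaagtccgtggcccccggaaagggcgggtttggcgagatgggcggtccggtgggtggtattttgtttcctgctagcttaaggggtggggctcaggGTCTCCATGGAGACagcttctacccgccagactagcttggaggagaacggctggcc
Pifo: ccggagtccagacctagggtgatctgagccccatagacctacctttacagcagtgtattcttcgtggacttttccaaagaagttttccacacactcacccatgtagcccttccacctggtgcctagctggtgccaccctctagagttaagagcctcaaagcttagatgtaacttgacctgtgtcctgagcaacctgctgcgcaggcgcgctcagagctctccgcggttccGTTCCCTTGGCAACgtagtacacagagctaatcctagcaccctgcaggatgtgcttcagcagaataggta
Dynlrb2: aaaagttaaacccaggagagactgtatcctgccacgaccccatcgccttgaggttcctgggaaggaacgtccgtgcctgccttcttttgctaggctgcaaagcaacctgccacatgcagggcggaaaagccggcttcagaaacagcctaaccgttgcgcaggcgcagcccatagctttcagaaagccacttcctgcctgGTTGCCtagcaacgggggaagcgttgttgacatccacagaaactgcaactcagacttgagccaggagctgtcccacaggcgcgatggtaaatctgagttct
Enkur: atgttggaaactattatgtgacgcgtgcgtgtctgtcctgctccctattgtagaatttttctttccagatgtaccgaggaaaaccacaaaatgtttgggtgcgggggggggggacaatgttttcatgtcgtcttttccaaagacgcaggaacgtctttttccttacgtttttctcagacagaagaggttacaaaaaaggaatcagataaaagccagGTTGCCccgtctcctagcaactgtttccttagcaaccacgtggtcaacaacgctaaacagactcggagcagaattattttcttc
Ccdc113: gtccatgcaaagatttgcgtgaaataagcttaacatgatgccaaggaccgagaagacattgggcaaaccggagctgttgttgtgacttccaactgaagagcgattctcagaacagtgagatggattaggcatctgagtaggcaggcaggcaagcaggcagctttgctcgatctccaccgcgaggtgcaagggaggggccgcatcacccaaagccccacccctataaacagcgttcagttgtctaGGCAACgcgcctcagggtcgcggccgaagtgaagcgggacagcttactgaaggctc
Ccdc153: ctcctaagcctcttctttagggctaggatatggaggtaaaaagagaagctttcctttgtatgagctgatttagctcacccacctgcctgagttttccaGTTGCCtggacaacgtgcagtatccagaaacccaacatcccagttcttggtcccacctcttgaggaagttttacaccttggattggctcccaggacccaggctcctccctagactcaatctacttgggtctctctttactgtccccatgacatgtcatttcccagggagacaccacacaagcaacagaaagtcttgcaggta
In Rsph9 and Pifo the capitals are the palindromic form, which begins 6 and 20 bases before the start that the window shown was taken from. Pifo has another window, at chr3:106014597-106014896, which holds neither form. In the other 4 genes the capitals are the single arm, and the window holds no exact match to the palindromic form. Inexact or differently spaced partner arms were not searched for.

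The radial spoke heads, which join the spokes to the central pair, were among the steadiest genes of the set. Rsph9 had a signal of 6355.9, 6829, 7095.4 and 6011 on apoE-/- replicates 1 to 4, against 6252.4, 5384, 6515.2, 5507.1 and 5692.3 on wild-type replicates 1 to 5. Wild-type replicates 1 and 3 lay among the apoE-/- arrays, so the groups overlapped. Its log2 difference was 0.19 ± 0.08 (SE, unadjusted p = 0.0389 by limma, adjusted p = 0.271), a 1.14-fold difference. Rsph1 and Rsph4a read 0.04 and 0.09, and the 9 arrays of Rsph1 spanned a 1.23-fold range.

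For the central pair, Spag16, Spef2 and Ak7, an adenylate kinase of the axoneme, were tested and read 0.04, -0.04 and -0.19 by their brightest probe sets, while both dimmer tested probe sets of Spef2 read higher, 0.24 and 0.29, without passing. Hydin, a projection of the central pair whose loss causes hydrocephalus in mice, was detected on 1 array of apoE-/- and 2 of wild-type tissue and was not tested. Its better detected probe set had a signal of 395.6, 393.6, 356.4 and 366.9 on apoE-/- replicates 1 to 4, against 289.8, 268.7, 342, 296 and 335.4 on wild-type replicates 1 to 5, without overlap. With no filter on dim probe sets the log2 difference of Hydin was 0.27 (limma adjusted p = 0.394).

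Of the tektins, Tekt1 was present on all arrays, with a log2 difference of 0.04 and a 1.19-fold range over the 9 arrays. Tekt4 was called present on apoE-/- replicate 1 only and was not tested. Tekt4 had a signal of 349.5, 300.6, 318.4 and 241.4 on apoE-/- replicates 1 to 4, against 208, 175.8, 144.8, 171.6 and 140.4 on wild-type replicates 1 to 5. All apoE-/- arrays were above all wild-type arrays. With no filter on dim probe sets the log2 difference of Tekt4 was 0.80 with a 95% interval of 0.42 to 1.18 (limma adjusted p = 0.0627), which does not pass. Its level is uncertain in both genotypes, since 3 of the 4 apoE-/- arrays and all 5 wild-type arrays were not called present. Tekt4 and Hydin are described because their groups did not overlap, chosen after their values were seen. They are 2 of the 19 probe sets of the gene set that were not tested. Over all tested probe sets 6.89% did not overlap, and the share over probe sets not tested was not computed.

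No dynein gene of the set passed the test. The light chain Dynlrb2 read 0.17 (adjusted p = 0.389), the inner arm chain Dnali1 -0.14 and the outer arm heavy chain Dnah11 0.21. Dnah9, another outer arm heavy chain, had a signal of 795.6, 1049.4, 1473.5 and 873.5 on apoE-/- replicates 1 to 4, against 956, 966.2, 1113.9, 925.1 and 993.3 on wild-type replicates 1 to 5. Replicate 3 was the highest array of each genotype, and the apoE-/- arrays spread on both sides of the wild-type arrays. The log2 difference of 0.04 ± 0.16 (SE, adjusted p = 0.921) became -0.14 without apoE-/- replicate 3. Dnah5, an outer arm heavy chain, was called present on 1 wild-type array and was not tested.

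Genes of the ruler and of the nexin-dynein regulatory complex, 3 of which were tested, all read slightly lower. Ccdc39 had a signal of 2505.9, 2128.9, 2095.5 and 2314.3 on apoE-/- replicates 1 to 4, against 2859.5, 2758.1, 2515.2, 2483.9 and 2524.8 on wild-type replicates 1 to 5. Only apoE-/- replicate 1 reached into the wild-type range. The log2 difference was -0.20 ± 0.09 (SE, unadjusted p = 0.0407 by limma, adjusted p = 0.277), and a dimmer probe set read -0.43 (unadjusted p = 0.0394, adjusted p = 0.272), so both pointed down without passing.

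Iqcg, a subunit of the regulatory complex, had a signal of 229.1, 156.3, 131.3 and 185.8 on apoE-/- replicates 1 to 4, against 246.8, 170.2, 212.2, 128.8 and 166.2 on wild-type replicates 1 to 5. The first array of each genotype was highest, and the groups overlapped over nearly their whole range. Iqcg read -0.14 ± 0.23 (SE, adjusted p = 0.808), and 0.0035 without apoE-/- replicate 3. Drc1, which anchors the complex, read -0.15.

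Of the remaining ciliary genes, Enkur, a microtubule-associated ciliary protein, and Ccdc113 read higher by small amounts. Enkur had a signal of 455.9, 464.1, 521.7 and 394.7 on apoE-/- replicates 1 to 4, against 298.8, 393.7, 324, 331.4 and 462.4 on wild-type replicates 1 to 5. By signal, wild-type replicate 5 lay among the apoE-/- arrays and the others below all of them. After normalization wild-type replicate 2, at a log2 level of 8.66, also lay above apoE-/- replicate 4, at 8.63. The log2 difference was 0.32 ± 0.15 (SE, unadjusted p = 0.0459 by limma, adjusted p = 0.292).

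Ccdc113, a protein of the ciliary base and axoneme, was the 1 tested gene of 24 whose groups did not overlap, where 6.19% of all tested genes, or 6.89% of probe sets, did not. Its signal was 1329.9, 1199.2, 1205.1 and 1192.3 on apoE-/- replicates 1 to 4, against 1094.2, 1055.3, 1114.1, 996.9 and 1188.8 on wild-type replicates 1 to 5. The gap between the groups was narrow, with wild-type replicate 5 just under the lowest apoE-/- array. It read 0.19 ± 0.09 (SE, adjusted p = 0.35), with the smallest spread within genotypes of the 24 genes.

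Ccdc153, a marker of ependymal cells in mouse brain, varied widely within both genotypes. It had a signal of 1263.4, 729.6, 805.3 and 717.1 on apoE-/- replicates 1 to 4, against 1027.1, 599.8, 537.6, 562.8 and 390.1 on wild-type replicates 1 to 5. Replicate 1 of each genotype stood above the rest, and apart from wild-type replicate 1 every wild-type array was below every apoE-/- array. The log2 difference was 0.51 ± 0.24 (SE, unadjusted p = 0.0491 by limma, adjusted p = 0.3), and 0.71 (adjusted p = 0.0747) without wild-type replicate 1. Without apoE-/- replicate 1 it was 0.32 (adjusted p = 0.567).

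Tppp3, a tubulin-binding protein, was high on the same arrays. Tppp3 had a signal of 613.6, 466.1, 346.6 and 342.5 on apoE-/- replicates 1 to 4, against 564.7, 415.1, 427.6, 453.5 and 308.9 on wild-type replicates 1 to 5. The groups overlapped throughout, and the log2 difference was -0.02 ± 0.20 (SE, adjusted p = 0.969). Tmem212, which was not tested and is added after its values were seen, had a signal of 1574, 569.7, 427.4 and 652.7 on apoE-/- replicates 1 to 4, against 841.6, 606.8, 473.8, 475.1 and 490.8 on wild-type replicates 1 to 5. Its highest value too was on apoE-/- replicate 1 and its next on wild-type replicate 1.

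The 14 tested genes not given array by array, among them Pifo, Ift88, Spa17 and Mlf1, had log2 differences from -0.19 to 0.21 and adjusted p-values from 0.389 to 0.98. Of these Ift88, a core protein of the particle that carries cargo along the cilium, read 0.03, and Pifo, a protein of the ciliary base, read 0.16.

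**Figure D3:**
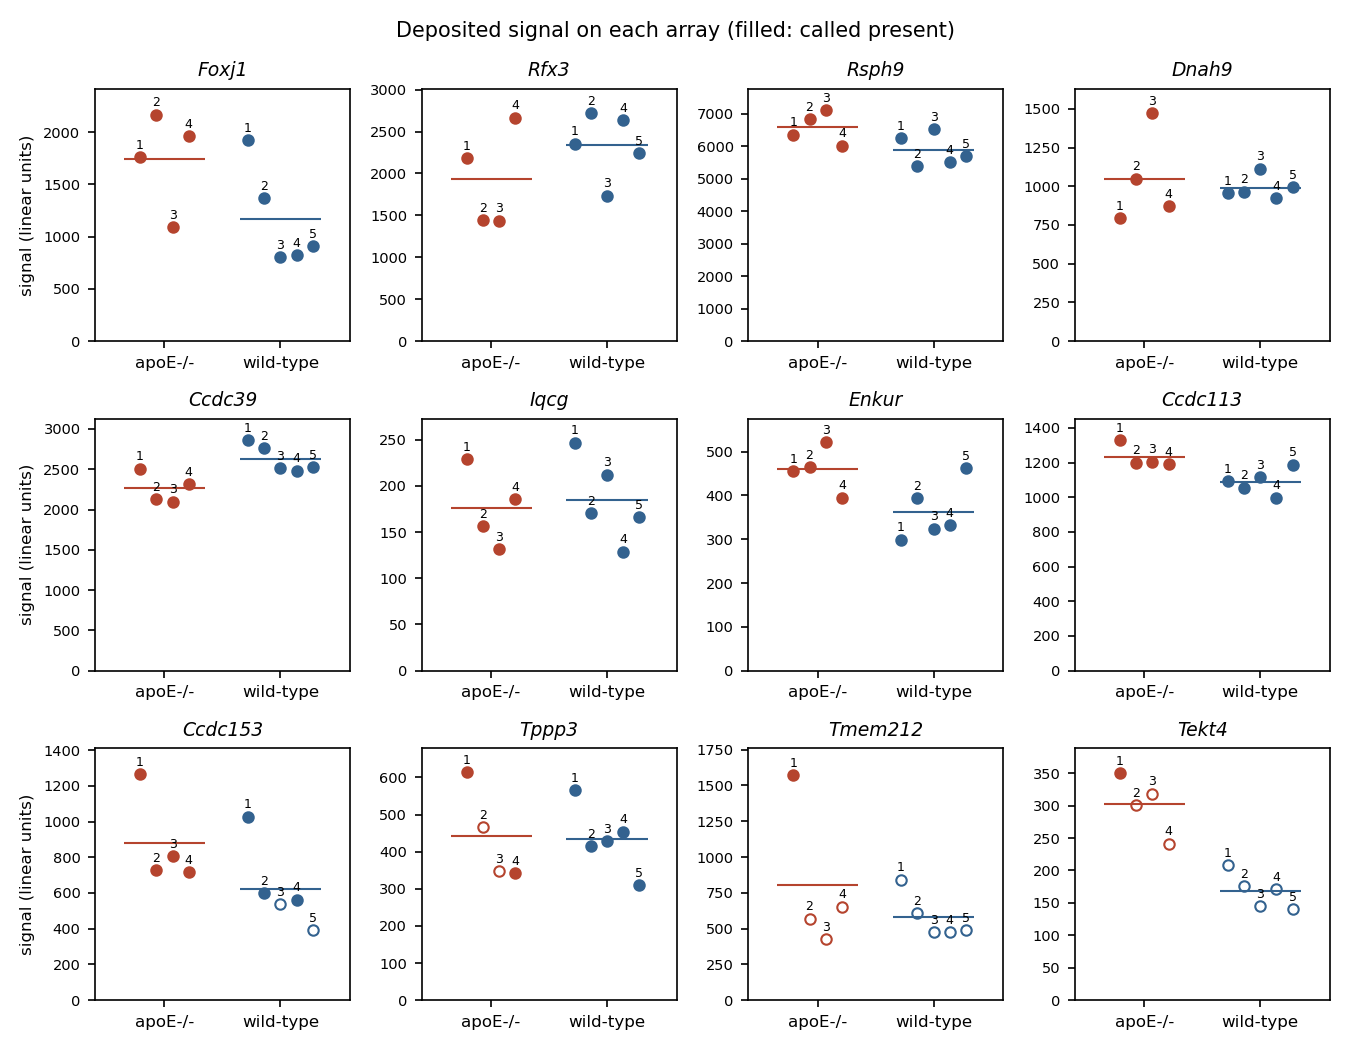
Deposited signal (vertical axes, linear units from 0, a scale for each gene) of 12 genes on each array, apoE-/- in red and wild-type in blue, with replicate numbers above the points, filled points for arrays called present and lines for group means. Replicate 1 is the highest array of each genotype for Ccdc39, Iqcg, Ccdc153, Tppp3, Tmem212 and Tekt4. The groups overlap for 10 of the 12 genes, all but Ccdc113 and Tekt4.

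As a whole the set varied between arrays about as much as other genes. The pooled within-genotype SD on the log2 scale had a median of 0.20 over the 24 genes and of 0.19 over all 11089 tested genes, and 12 of the 24 lay below that overall median. The genes ran from 0.08 for Ccdc113 and 0.09 for Tekt1 to 0.46 for Ccdc153 and 0.51 for Foxj1. Of the 24 genes, 8 lay below the lower quartile of all tested genes, 0.14, and 6 above the upper quartile, 0.27: Foxj1, Ccdc153, Iqcg, Tppp3, Rfx3 and Dnah9. Only Foxj1, over a 2.74-fold range, and Ccdc153, over a 3.25-fold range, differed more than 2-fold between the lowest and highest of the 9 arrays.

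**Figure D4:**
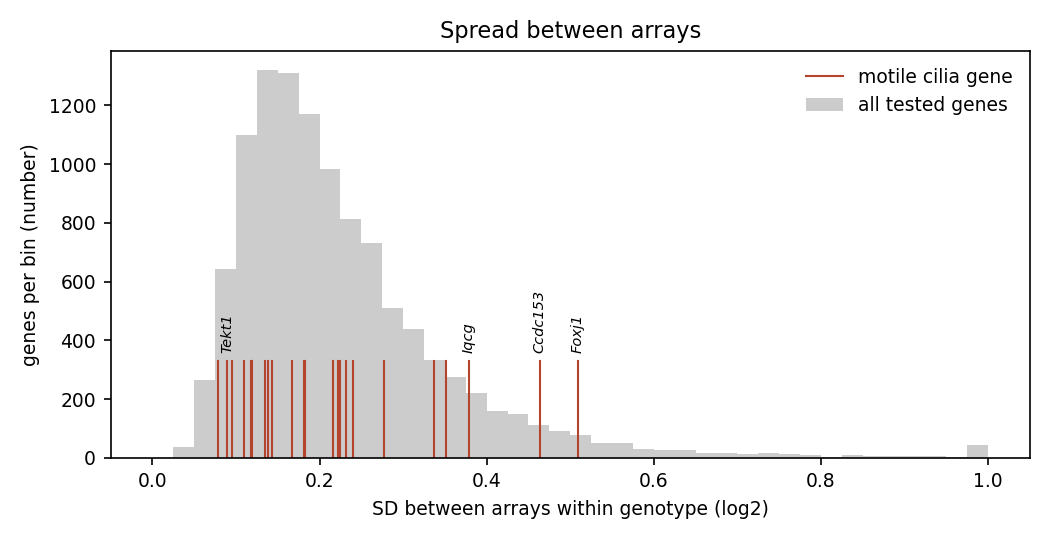
Number of genes (vertical axis) by SD between arrays within genotype (horizontal axis, log2 units; values over 1 are in the last bin), for all tested genes in grey, with a red line for each of 24 motile cilia genes. Most red lines fall under the bulk of the grey bars, and those of Ccdc153 at 0.46 and Foxj1 at 0.51 stand to the right.

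The first array of each genotype read the set highest. As a difference from the mean over 9 arrays, the mean of the 24 genes was 0.16, 0.02, -0.02 and -0.02 on apoE-/- replicates 1 to 4, against 0.14, -0.01, -0.07, -0.13 and -0.06 on wild-type replicates 1 to 5. Of the 24 genes, 13, or 54.2%, had their highest value on apoE-/- replicate 1 or wild-type replicate 1, while 21.4% of all tested genes did. By array, the shares were 33.3% against 8.71% on apoE-/- replicate 1 and 20.8% against 12.7% on wild-type replicate 1. This pair of arrays was chosen after the values were seen, so the shares describe the pattern and do not test it. Both were the top arrays for Spef2, Iqcg, Ift88, Tppp3 and Ccdc153 among the tested genes, and for Tmem212. Averaged by genotype, the set stood at 0.03 ± 0.09 for apoE-/- (SD, n = 4) and at -0.03 ± 0.10 for wild-type (SD, n = 5), a difference of 0.06. Wild-type replicate 4 was lowest, with 5 of the 24 genes at their lowest value there.

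Markers of other cells that a capture could hold moved with some of these arrays. The 5 tested astrocyte markers of 8 averaged 0.39 on apoE-/- replicate 1 and 0.28 on wild-type replicate 1, the top values of the 9 arrays, and -0.39 on wild-type replicate 4, the lowest. Their summed signal ran from 5716.8 to 6342.9 on apoE-/- and from 4616.4 to 5648.1 on wild-type arrays. Gfap, the classical astrocyte filament, was called present on 1 array, Slc1a2 on 3 and Agt on none. The 4 tested oligodendrocyte markers, of 7 on the array, averaged 0.24 on apoE-/- replicate 1 and 0.73 on wild-type replicate 1, with a summed signal of 2553.6 to 4269.8 on apoE-/- and 2687.4 to 9029.1 on wild-type arrays, and Mag and Mog were never called present. The 7 tested neuron markers, of 9 on the array, averaged -0.25 on apoE-/- replicate 1 but 0.60 on wild-type replicate 1, with a summed signal of 964 to 1304.6 on apoE-/- and 1088.9 to 1931.1 on wild-type arrays, and Camk2a and Nefm were never called present. Of the 6 tested macrophage markers, of 8 on the array, 2 rose, where 0.794% of all tested genes did. They were Lyz2, by 0.81 (limma adjusted p = 0.0154), and Ctss, by 0.63 (adjusted p = 0.0179). Cd14 was never called present and Aif1 was called present on 1 array. Among the tested endothelial markers 0 of 7 passed, and among the stromal markers 0 of 6. The stromal markers went the other way, averaging -0.33 on apoE-/- replicate 1 and -0.18 on wild-type replicate 1, the lowest values of the 9 arrays. On the same arrays the macrophage markers averaged 0.35 and 0.02, with their top value, 0.63, on apoE-/- replicate 3. The endothelial markers averaged 0.01 and -0.003. The part of these cells in the array pattern of the cilia genes was not tested.

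The captures do not show which cells expressed the genes listed for ependyma that belong to no cilium. These genes, 8 of 8 tested, followed the cilia genes on 1 of the first arrays. They averaged 0.13 on apoE-/- replicate 1, the highest of the 9 arrays, and 0.03 on wild-type replicate 1, with a summed signal of 11984.4 to 13728.2 on apoE-/- and 11317.9 to 12861.2 on wild-type arrays. None of the 8 passed the test between genotypes, and 3, or 37.5%, had an unadjusted p under 0.05 by limma, where 14.8% of all tested genes did, Tm4sf1 (0.34) and Rarres2 (0.47) higher and Nes (-0.57) lower. S100b, a calcium-binding protein of ependyma and astrocytes, had its top signals on the same pair of arrays, 474.1 on apoE-/- replicate 1 and 522.6 on wild-type replicate 1, with 302.3 to 392.7 on the other 7. Other markers of the list did not share this order: Tm4sf1, at 2125.8, and Sox9, at 1409.9, had their lowest signal of the 9 arrays on wild-type replicate 1. These 3 were chosen after their values were seen. The mean of the 14 choroid plexus epithelium markers lay between -0.05 and 0.06 on every array and was lowest on wild-type replicate 1, while single markers differed between genotypes by -0.24 to 0.26, none passing.

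**Figure D5:**
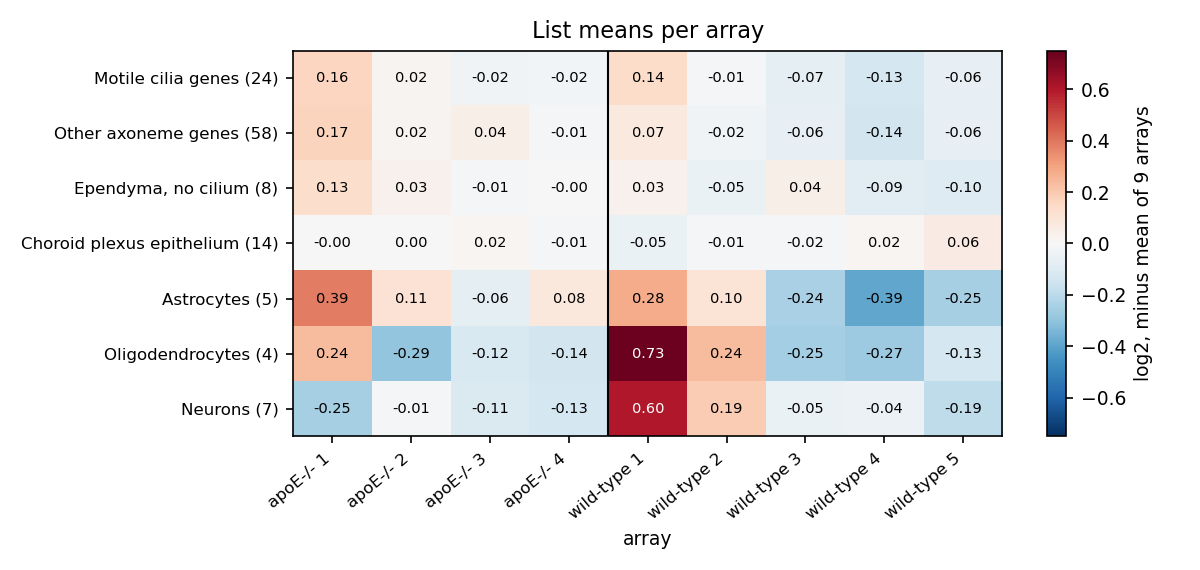
Mean log2 value of each gene list on each array (columns, apoE-/- left of the line and wild-type right of it), as a difference from the mean over the 9 arrays, with the number of tested genes in brackets. The motile cilia row is highest on apoE-/- replicate 1 (0.16) and wild-type replicate 1 (0.14), as is the astrocyte row (0.39 and 0.28), while the choroid plexus epithelium row stays near 0. The macrophage, endothelial and stromal lists are not drawn.

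Cilia genes outside the set gave a similar picture. Of 158 listed names, some of them older and newer names of the same gene, 128 had a probe set and 112 were tested. By brightest probe set, 1 of the 112 rose and 0 fell, where 1.66% of all tested genes passed in either direction, and 15 had an unadjusted p under 0.05, or 13.4%, against 14.8% of all tested genes. The median log2 difference was 0.10 over 58 axoneme, dynein and radial spoke genes, -0.0026 over 44 genes of ciliary transport and the basal body, and -0.05 over 10 regulators. The mean of the 58 axoneme genes was also highest on the first arrays, 0.17 on apoE-/- replicate 1 and 0.07 on wild-type replicate 1, whereas the 44 transport and basal body genes stayed within -0.03 and 0.03 on all 9.

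The gene that rose was Dnaic1, an intermediate chain of the outer dynein arm. Dnaic1 had a signal of 366.9, 383.8, 371.6 and 380.7 on apoE-/- replicates 1 to 4, against 265.8, 211.5, 258.5, 242.4 and 264.9 on wild-type replicates 1 to 5. The apoE-/- arrays were nearly equal and all above the wild-type arrays. The log2 difference was 0.56 ± 0.12 (SE, limma adjusted p = 0.0268), a 1.48-fold rise, but the identifier of that probe set ends in _x_at, which marks probes that may bind other transcripts, and its other probe set read 0.10 (adjusted p = 0.871). Leaving out any of apoE-/- replicates 1, 2 and 3 ended the call, as did leaving out wild-type replicate 2 or 4, with an adjusted p of 0.0652 to 0.0802, and so did a fit with replicate numbers as a block or with no filter (adjusted p = 0.0644 and 0.063). The difference itself stayed between 0.52 and 0.59 with any 1 array left out.

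Other axoneme genes with small p-values did not pass: Tctex1d4, a dynein light chain relative, read 0.69 (adjusted p = 0.137), Spag8 0.44 and Cfap69 -0.24, with a dimmer probe set of Cfap69 reading the other way. With 1 array left out Tctex1d4 ran from 0.51 (adjusted p = 0.395, without apoE-/- replicate 3) to 0.89 (adjusted p = 0.0348, without apoE-/- replicate 4), the 1 setting of 9 in which it passed. In ciliary transport, Ift46 read 0.33 (adjusted p = 0.133) and Ift74 -0.21, both parts of the anterograde particle, the transport dynein chain Dync2li1 read 0.22 and the transition zone protein Tmem216 0.35. Among the regulators, Rfx1 read -0.40 (adjusted p = 0.21), Trp73, a p53 relative that acts upstream of ciliogenesis, -0.14, E2f5 0.12 and Cep63 -0.09. A dimmer probe set of Rfx7 fell by 0.76 on the log2 scale (limma adjusted p = 0.0452), while its brightest read -0.02. It is named after its values were seen.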

How the data were processed

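Per the file headers, the deposited files hold a signal intensity for each of 45101 probe sets with a detection call. The submitters' processing notes name GCOS 1.4, and the background and summary steps are not given in these sources. With the top and bottom 2% left out, the deposited intensities averaged 500.0 on every array, which shows scaling by array. All 405909 values of the series matrix equal those of the array files. The 9 columns of detection p-values were not used.

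Intensities were taken to log2 and quantile normalized, since array medians ranged over 0.214. Probe sets were tested where called present on at least 4 of 9 arrays, 64 controls left out, with limma 3.58.1 in R 4.3.3 (lmFit, eBayes with a mean-variance trend, two-sided, genotype the only term) and Benjamini-Hochberg adjustment over all 21478 at 0.05. The number of arrays limits the precision. The limma step was tested on simulated data. Gene names came from the platform annotation, which gives 1 symbol to 34958 probe sets, several to 932 (not used) and does not list 9211. By gene ID, 34754 matched RefSeq genes of GRCm38.p6.

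The members, gene lists and tests were chosen with earlier results of these data known. Values on every array are given for members with an unadjusted p under 0.05, with non-overlapping groups, the regulators, and the 6 of largest spread, and of each other cilia list the 4 genes of smallest p are named. Results were recomputed with other scalings and filters, with an offset of 50, without the variance trend, with replicate numbers as a block, with a gene's median probe set, and with each array left out.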

Additional observations from a re-analysis of the deposited data

Results flagged for a closer look

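Of the 42 sets of 4 or 5 arrays checked for a value far from the others, 1 had one, and chance gives about 1 in 20. Dnah9 on wild-type replicate 3 had a log2 level of 10.13, apart from the other wild-type arrays, the nearest of which was at 9.92.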

How the results depend on the processing

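No probe set of the motile cilia set passed under any of the 17 alternatives run on them, 9 of which left out an array and 1 of which, leaving out both first arrays, was chosen after seeing the data. Among the 10 genes followed singly the lowest adjusted p was 0.0568, for Foxj1 without wild-type replicate 1. The median difference over the set ran from 0.0046 to 0.0755 when an array was left out. Some genes near 0 turned sign with 1 array left out: Dnah9 ran from -0.138 to 0.169, Iqcg from -0.299 to 0.0035 and Tppp3 from -0.197 to 0.0829, and Tppp3 also read 0.0107 without quantile normalization. Dnah9 and Iqcg turned when apoE-/- replicate 3 was left out, and Tppp3 on leaving out that array, apoE-/- replicate 4 or wild-type replicate 1. The cause was not tested.

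Counts over all probe sets moved more. The 144 higher became 81 with no filter, 57 without the variance trend, 73 without both first arrays and 56 to 240 with 1 array left out. They moved by over 1.5 times on leaving out any apoE-/- array (88, 64, 56 and 240 for replicates 1 to 4) or wild-type replicate 2 (90) or 4 (72). The 412 lower became 248, 252 and 235 under the same 3 settings and 207 to 529 with 1 array left out, the lowest being 207 without apoE-/- replicate 3, with 212 when wild-type replicate 4 was left out. Among other cilia genes the count of 1 became 0 with no filter, with the replicate block, with the median over probe sets and without both first arrays, and 0 to 2 with 1 array left out. With replicate numbers as a block, over the 4 shared numbers, 180 probe sets were higher and 421 lower, and 0 of the motile cilia set in either direction. The labels do not say whether the numbers pair the arrays. Deviations of same-numbered arrays from their group means correlated at 0.16, -0.01, 0.03 and 0.008. These values, taken over all tested probe sets, cannot settle whether same-numbered arrays shared a step.

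With 4 and 5 arrays, genes of wide spread such as Foxj1 and Ccdc153 have intervals reaching beyond 2-fold, and dim genes not called present have no reliable level.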
